A study of Mus musculus with 2 samples.

Results

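The integrin and laminin genes of mouse sarcoma cells were compared between 1 RNA-seq library of cells in which circCsnk1g3 was silenced and 1 library of control cells. The rule for the genes used their symbols and no measured value, and took every row of the deposited count table whose symbol is that of an integrin alpha chain, an integrin beta chain or a laminin chain. This gave 38 of the 25509 genes in the table, of which 19 were integrin alpha rows, 8 integrin beta rows and 11 laminin rows. Itgam, the alpha chain of a leukocyte integrin, had 2 rows with different identifiers, so that the 19 alpha rows stood for 18 symbols.

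Both libraries came from the same kind of cell, p53-/- Ccne1+ soft-tissue sarcoma cells of the C57BL/6 strain. According to the labels and the article, mesenchymal stem cells without p53 were made to overexpress Ccne1 (cyclin E1) with a retrovirus, grew as subcutaneous tumors, were passed to the lungs of further mice, and were taken back from the lung foci. Those cells then received either a hairpin against the circular RNA of Csnk1g3 (shcircCsnk1g3) or a control hairpin, named shCTR in the labels and shSCR in the article. The p53 loss and the Ccne1 overexpression were therefore shared by the silenced and the control cells, and 1 library per condition gives no replicate check.

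Integrins are receptors of the cell surface made of an alpha and a beta chain, which together bind matrix proteins outside the cell and join the actin cytoskeleton inside it through talin, kindlin and other adaptors. The alpha chain largely sets which matrix protein is bound, be it fibronectin, collagen or laminin. Laminins are secreted trimers of an alpha, a beta and a gamma chain that form the core sheet of basement membranes, and mesenchymal tumor cells are known both to make laminins and to attach to them through beta1 integrins.

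The estimated counts summed to 38792143 in the silenced library and 42709996 in the control library, with TMM factors (edgeR's scaling for RNA composition) of 1.01 and 0.989. Csnk1g3, whose circular RNA was the target, had 2159 counts in the silenced library and 2411 in the control library, but the libraries hold polyadenylated RNA, which circular RNA is not, and do not measure the depletion. Of 11 mesenchymal markers 9 had at least 10 counts in a library, with Vim at 225330 and 282350 counts, while Thy1 and Fap had at most 1 count in either library. Markers of other cell types were low, here given as summed TMM-scaled CPM of the silenced and the control library. The 11 leukocyte markers came to 2.17 and 3.31 CPM, with 6 of the 11 at 0 in both libraries. The 5 platelet markers came to 1.199 and 1.61 CPM, mostly Gp1bb (43 and 53 counts) with Pf4 and Gp9 at 0, and the 9 endothelial markers to 0.510 and 0.781 CPM with Kdr, Emcn and Cldn5 at 0. The 12 epithelial markers came to 3.26 and 1.89 CPM with Epcam at 0 and most of the counts in Krt8, which had 92 and 46 (log2 fold change 1.07, 0.58 to 1.65), and the 5 skeletal muscle markers to 1.33 and 1.35 CPM, mostly Acta1 (37 and 51 counts), with Myod1 and Myog at 0.

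A log2 fold change, of the silenced over the control library, was given to the 26 of 38 rows that reached 10 counts in either library, using TMM-scaled CPM and a prior count of 2. All 26 reached that minimum in both libraries. The other 12 comprised 5 rows at 0 in both libraries and 7 with 1 to 9 counts in at least 1 of them, and 21 rows had at least 200 counts summed over both libraries. Each log2 fold change is followed by the 95% interval that the 2 counts allow (exact, Clopper-Pearson), which compares libraries rather than conditions. With 1 library per condition the interval covers counting error only. Reads without molecular identifiers are not independent molecules, so it can be too narrow even for that error. No p-value was computed. For a gene with 100 counts in each library the interval reached 0.41 to either side on the log2 scale, and for a gene with 10000 counts 0.04.

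The integrin and laminin genes differed in both directions. Their median log2 fold change was -0.01 over the 26 genes, against 0.0023 over all 12941 genes tested, and -0.13 over the 21 genes with at least 200 summed counts, against 0.00086 over the 10662 such genes. Itga8 and Itgae were at least 2-fold higher in the silenced library, 2 of 26 genes beside 2.13% of all genes tested, and Itgb7 was at least 2-fold lower, 1 of 26 beside 2.55%. With at least 200 summed counts, Itga8 alone was 2-fold higher, 1 of 21 beside 0.563% of all such genes, and Itgb7 alone was 2-fold lower, 1 of 21 beside 0.741%. The counting interval lay above 0 for 4 of the 21 genes, beside 29.5% of all genes at that depth, and below 0 for 10 of the 21, beside 31%. Smaller differences than 2-fold in the lower direction were thus present in genes of all 3 groups, among them the most abundant alpha chain of the control library, Itga3, and the most abundant beta chain, Itgb1. In bulk RNA, fewer cells of a type and less RNA per cell cannot be told apart.

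**Figure D1:**
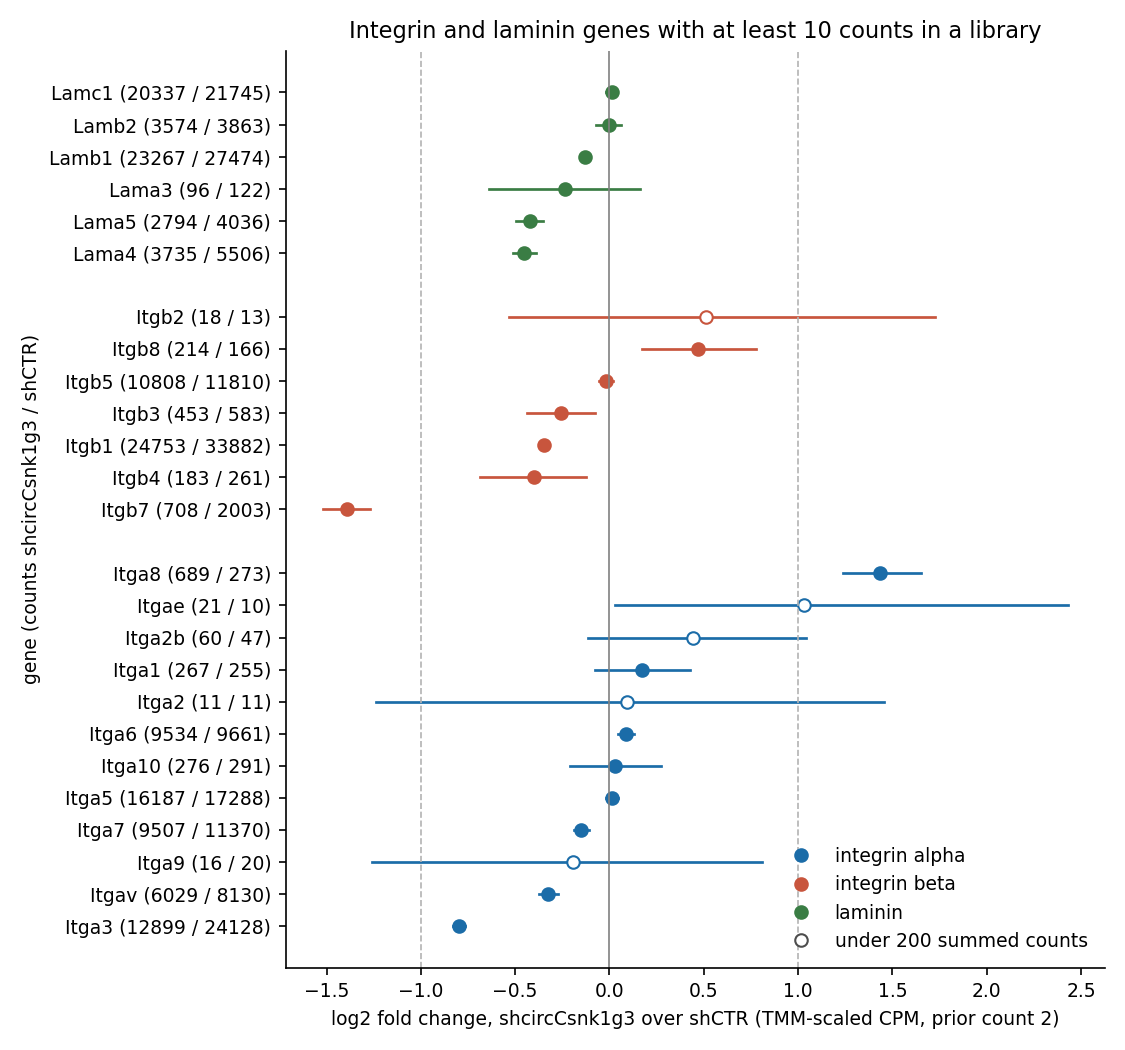
Log2 fold change of the silenced over the control library (horizontal axis) for 25 integrin and laminin genes with at least 10 counts, with the counts of both libraries beside each name; bars are 95% counting intervals, open points have under 200 summed counts and dashed lines mark 2-fold. Itga8 at 1.44 and Itgb7 at -1.39 lie outside the dashed lines with narrow intervals, and Itga3 at -0.80 is the next lowest.

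Among the integrin alpha chains, those that bind laminin were Itga3, Itga6 and Itga7, and Itga3 stood apart from the others. Itga3 (ENSMUSG00000001507, minus strand of chromosome 11 from 95044474 to 95076801 in GRCm38), which pairs with beta1 and binds the laminins with an alpha3 or alpha5 chain, had 12899 counts in the silenced library and 24128 in the control library. Its log2 fold change was -0.80 (-0.83 to -0.77), a level 0.576 times that of the control, which placed it 161st from the lowest of the 10662 genes with at least 200 summed counts. Itga7, the laminin receptor best known from muscle, had 9507 and 11370 counts and a log2 fold change of -0.15 (-0.19 to -0.11). Itga6, which pairs with beta1 or beta4, had 9534 and 9661 counts and a log2 fold change of 0.09 (0.05 to 0.13). The 3 laminin-binding alpha chains together came to 115 TMM-scaled CPM per kilobase of exon in the silenced library and 159 in the control library, and most of that difference was in Itga3, since all alpha chains without Itga3 summed to 159 and 162 CPM per kilobase.

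The alpha chains that recognise the arginine-glycine-aspartate motif of fibronectin, vitronectin and related proteins differed among themselves in direction. Itga5, the chain of the classical fibronectin receptor, had 16187 counts in the silenced library and 17288 in the control library, with a log2 fold change of 0.01 (-0.02 to 0.04). Itgav, which pairs with several beta chains and whose integrins also bind latent TGF-beta, had 6029 and 8130 counts and a log2 fold change of -0.32 (-0.37 to -0.28), and 634 of its 10744 exonic bases overlap Gm13684 on the opposite strand, which has no row in the count table. Itga8 (ENSMUSG00000026768, minus strand of chromosome 2 from 12106632 to 12301922), which pairs with beta1 and binds nephronectin, had 689 counts in the silenced library and 273 in the control library. Its log2 fold change of 1.44 (1.24 to 1.65), a level 2.71 times that of the control, was 27th from the highest of the 10662 genes. Itga8 was nonetheless a minor chain, at 2.38 CPM per kilobase in the silenced library and 0.877 in the control library, against 83.7 and 82.9 for Itga5. In the annotation 372 of the 7368 exonic bases of Itga8 overlap E030013I19Rik on the opposite strand, a gene with no row in the count table, and since the strand setting of the counting was not stated, reads of the 2 genes there cannot be told apart. Itga2b, the platelet alphaIIb chain, had 60 and 47 counts and a log2 fold change of 0.44 (-0.12 to 1.04).

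The collagen-binding alpha chains were scarce in both libraries, and their difference was within counting error or not computed. Itga10 had 276 counts in the silenced library and 291 in the control library (log2 fold change 0.03, -0.21 to 0.27). In the annotation 1739 of its 5186 exonic bases are those of Gm42957 too, on the same strand, a gene with 4 and 10 counts. Itga1 had 267 and 255 counts and a log2 fold change of 0.17 (-0.08 to 0.43). Of its 18599 exonic bases 685 are also those of Gm49395 on the same strand, which has no row in the count table. Itga2 had 11 counts in each library (log2 fold change 0.09, -1.24 to 1.45), and Itga11, known as a collagen receptor of fibroblasts, had 1 count in the silenced library and 9 in the control library, too few for a fold change. Together these 4 chains came to 1.77 CPM per kilobase in the silenced library and 1.73 in the control library, little beside the 101 and 102 CPM per kilobase of the 4 chains that bind the arginine-glycine-aspartate motif.

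The alpha chains known from leukocytes were nearly empty. Itgae, the alphaE chain of lymphocytes in epithelia, had 21 counts in the silenced library and 10 in the control library, and its log2 fold change of 1.03 was just past 2-fold with an interval from 0.03 to 2.43. Itga9, a chain that binds tenascin C, had 16 and 20 counts (log2 fold change -0.19, -1.26 to 0.81). Itga4, the alpha4 chain of circulating leukocytes, had 2 counts in the silenced library and 4 in the control library, and Itgal, the alpha chain of LFA-1, had 0 and 1. Both rows of Itgam, Itgax and Itgad were at 0 in both libraries, where a count of 0 allows up to 3 counts, or 0.0765 CPM in the silenced library and 0.0710 CPM in the control library. Of the 12 alpha chains given a log2 fold change, 8 were above 0 and 4 below, with a median of 0.06 that was 0.02 over the 8 with at least 200 summed counts, and 3 had an interval above 0 and 3 below, beside 26.9% and 28.2% of all genes tested.

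The beta chains leaned lower, with a median log2 fold change of -0.26 over 7 genes. Of the 6 with at least 200 summed counts, 4 had a counting interval below 0, beside 31% of all genes at that depth. The interval lay above 0 for 1 of the 6, beside 29.5%. Itgb1 (ENSMUSG00000025809, plus strand of chromosome 8 from 128685654 to 128733200), the partner of most alpha chains, had 24753 counts in the silenced library and 33882 in the control library, with a log2 fold change of -0.35 (-0.37 to -0.32). Itgb5, a partner of alphaV only, had 10808 and 11810 counts and a log2 fold change of -0.02 (-0.06 to 0.02). The most abundant beta chain was therefore lower in the silenced library with its whole interval below 0, while the interval of the next most abundant spanned 0. Itgb3, the partner of alphaV and alphaIIb, had 453 and 583 counts (-0.26, -0.44 to -0.08), and Itgb4, the partner of alpha6 in hemidesmosomes, had 183 and 261 (-0.40, -0.69 to -0.13). Itgb8, an alphaV partner that takes part in the activation of latent TGF-beta, had 214 counts in the silenced library and 166 in the control library, the only beta chain whose interval lay above 0 (0.47, 0.17 to 0.78). Itgb4 shares 537 exonic bases with B230344G16Rik on the opposite strand, which had 10 and 4 counts. Itgb2, the beta chain of leukocytes, had 18 and 13 counts (0.51, -0.53 to 1.73), and Itgb6, known from epithelia, had 0 and 1.

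Itgb7 had the lowest log2 fold change of the 26 integrin and laminin genes. Itgb7 (ENSMUSG00000001281, minus strand of chromosome 15 from 102215995 to 102231944), the beta chain of the gut-homing integrins of lymphocytes, had 708 counts in the silenced library and 2003 in the control library. Its log2 fold change was -1.39 (-1.52 to -1.27), a level 0.381 times that of the control and 24th from the lowest of the 10662 genes with at least 200 summed counts. No other annotated gene overlaps its exons. The known partners of Itgb7 were almost absent from both libraries. Itga4 and Itgae had at most 21 counts in either, and per kilobase of exon the level of Itgb7 was 55.8 times that of Itgae in the silenced library and 331 times in the control library. Of its ligands, Madcam1 had 1 count in the silenced library and 0 in the control library, and Cdh1, which encodes E-cadherin, had 1 and 6, while Vcam1, a ligand of alpha4 integrins, had 3574 and 4217 (-0.13, -0.20 to -0.07). Because Itgb7 is known from leukocytes, the leukocyte markers were set beside it. Ptprc, the pan-leukocyte gene of CD45, had 1 count in the silenced library and 0 in the control library, and all 11 markers together, 2.17 and 3.31 CPM, came to less than Itgb7 alone, at 18.1 and 47.4 CPM. Among these markers Laptm5 had the most counts, 45 in the silenced library and 102 in the control library (log2 fold change -1.04, -1.61 to -0.55). The only other marker with at least 10 counts, Coro1a, had 28 and 27 (0.15, -0.66 to 0.98), Cd79a had 9 and 5, and Csf1r had 2 and 6. The part of these markers in the difference of Itgb7 was not tested.

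**Figure D2:**
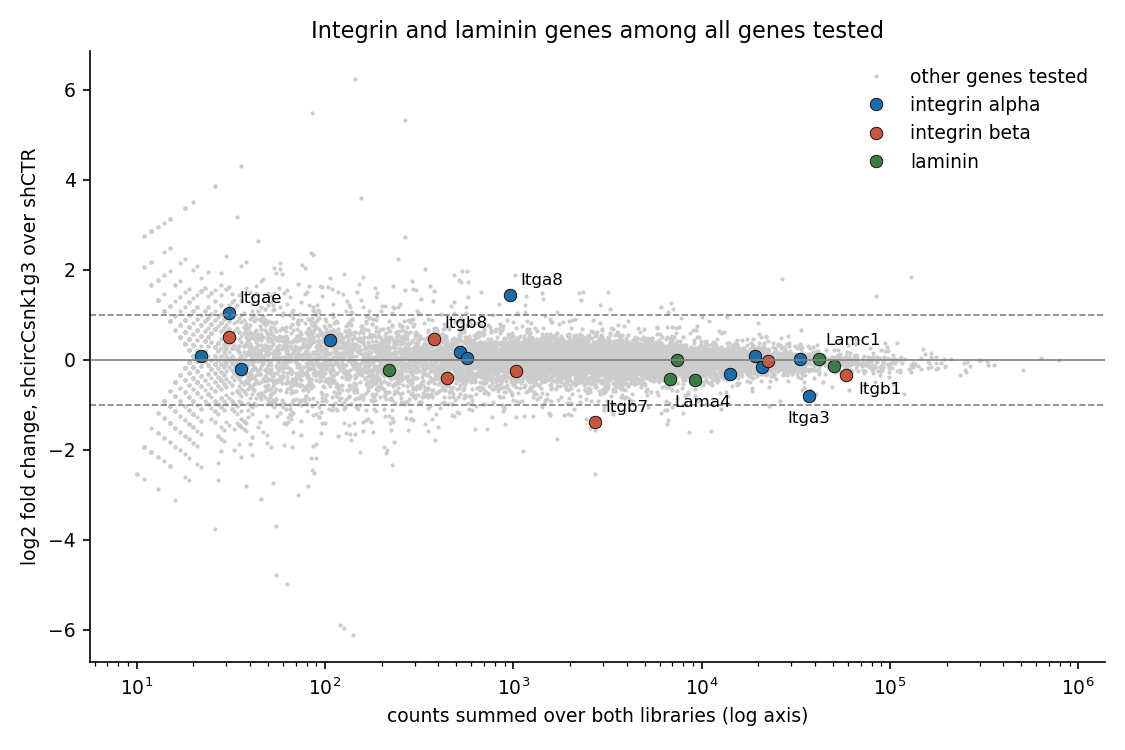
Log2 fold change of the silenced over the control library (vertical axis) against the counts summed over both libraries (log axis) for all 12941 genes tested, with the integrin and laminin genes in color and dashed lines at 2-fold. Itga8 and Itgb7 lie at the edge of the cloud for their depth, Itga3 lies below most genes of similar depth, and most other members lie within it.

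Among the 7 laminin genes with at least 200 summed counts, 0 were past 2-fold, beside 0.563% higher and 0.741% lower of all such genes. At those shares 0 of 7 does not set the laminins apart. Their median log2 fold change was -0.13, and 3 of the 7 had a counting interval below 0, beside 31%. Lama4 (ENSMUSG00000019846, plus strand of chromosome 10 from 38965515 to 39110188), the alpha chain of mesenchymal and vascular laminins, had 3735 counts in the silenced library and 5506 in the control library, with a log2 fold change of -0.45 (-0.51 to -0.39). Lama5 (ENSMUSG00000015647, minus strand of chromosome 2 from 180176373 to 180225859), an alpha chain of many adult basement membranes, had 2794 and 4036 counts and a log2 fold change of -0.42 (-0.49 to -0.35). Both of the abundant alpha chains were thus lower in the silenced library, by similar amounts, and the 5 laminin alpha chains summed to 14.4 CPM per kilobase there against 19.5 in the control library. Lama3, the alpha chain of epithelial laminins, had 96 and 122 counts (-0.23, -0.64 to 0.16), Lama2, known from muscle, had 0 and 5, and Lama1, known from the early embryo, was at 0 in both. The chains that complete the trimers differed less between the libraries. Lamb1, a beta chain of many tissues, had 23267 counts in the silenced library and 27474 in the control library (-0.13, -0.16 to -0.11), and Lamc1, the gamma chain of most trimers, had 20337 and 21745 (0.01, -0.02 to 0.04). Lamb2, known from kidney and neuromuscular basement membranes, had 3574 and 3863 counts (-0.0046, -0.07 to 0.06). Lamb3, known from epithelia, had 0 and 3 counts, and Lamc3 6 and 9. Lama4 and Lama5 share no exonic bases with another annotated gene.

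Itgb7, Itga8 and Itga3 differed most between the libraries among the integrin and laminin genes with at least 200 summed counts. Itga5 is an abundant alpha chain whose counting interval spanned 0. The 4 sequences below show the bases before the annotated start of each of these genes. They come from RefSeq on GRCm38.p6, run 5′ to 3′ on the strand of the gene and hold only bases upstream of every annotated transcript start within the window. Capitals mark matches, on either strand, to 6 motifs, which are spelled TATAAA for the core promoter element of that name, CCAAT for the box of that name, GGGCGG for the GC box, TGANTCA for the AP-1 site, GAAANNGAA for the core that interferon regulatory factors bind, and TTCNNNGAA for the GAS motif of STAT factors.
Itgb7, chr15:102231945-102232185, minus strand: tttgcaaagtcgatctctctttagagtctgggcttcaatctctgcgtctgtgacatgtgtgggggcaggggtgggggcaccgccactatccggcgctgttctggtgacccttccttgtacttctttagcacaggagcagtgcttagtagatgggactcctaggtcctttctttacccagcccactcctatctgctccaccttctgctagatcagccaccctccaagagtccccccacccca
Itga8, chr2:12301945-12302194, minus strand: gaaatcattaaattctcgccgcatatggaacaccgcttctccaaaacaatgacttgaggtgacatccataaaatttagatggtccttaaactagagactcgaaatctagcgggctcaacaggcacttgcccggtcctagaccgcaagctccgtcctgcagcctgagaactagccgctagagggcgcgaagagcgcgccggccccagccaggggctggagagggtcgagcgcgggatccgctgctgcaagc
Itga3, chr11:95076802-95076964, minus strand: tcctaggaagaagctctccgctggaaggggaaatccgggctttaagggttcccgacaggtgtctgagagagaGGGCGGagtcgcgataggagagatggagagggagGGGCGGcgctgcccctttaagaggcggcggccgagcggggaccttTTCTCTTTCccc
Itga5, chr15:103366792-103367041, minus strand: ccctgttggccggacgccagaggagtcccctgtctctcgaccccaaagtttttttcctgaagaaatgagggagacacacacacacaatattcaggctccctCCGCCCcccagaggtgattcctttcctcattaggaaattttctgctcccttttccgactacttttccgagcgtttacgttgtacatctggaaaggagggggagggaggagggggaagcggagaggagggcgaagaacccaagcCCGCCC

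The Itgb7 and Itga8 sequences held none of these motifs, that of Itga3 held 2 GC boxes and 1 interferon regulatory factor core, and that of Itga5 held 2 GC boxes. The marked matches do not overlap each other. CpG dinucleotides numbered 5 in the 241 bases of Itgb7, 18 in the 250 bases of Itga8, 12 in the 163 bases of Itga3 and 11 in the 250 bases of Itga5. RefSeq promoters matched 23 of the members by symbol, with 26 start sites, so these counts leave out the others. In the 250 bases before the start, the GC box was found in 9 of the 26 promoters (34.6%) against 32.7% of all 32851 promoters, the CCAAT box in 4 (15.4%) against 33.8%, the interferon regulatory factor core in 3 (11.5%) against 7.13%, the GAS motif in 2 (7.69%) against 7.02%, the AP-1 site in 1 (3.85%) against 6.75%, and the TATA box in 0 against 12.4%. The median number of CpG dinucleotides was 10 in the members' promoters and 6 in all promoters. These matches describe letters in a window and no binding was measured.

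Levels per length show which chains had the most RNA. In the control library Itga3 led the alpha chains at 100.02 TMM-scaled CPM per kilobase of exon, followed by Itga5 at 82.9, Itga7 at 33.3, Itga6 at 25.3 and Itgav at 17.9. In the silenced library Itga5 led at 83.7 and Itga3 came next at 57.6, followed by Itga7 at 30.0, Itga6 at 26.9 and Itgav at 14.3. The ratio of Itga3 to Itga5 was 1.21 in the control library and 0.688 in the silenced library, so that the order of the 2 leading alpha chains was exchanged. As a share of all alpha chains per length, Itga3 held 38.1% in the control library and 26.5% in the silenced library, while Itga5 held 31.6% and 38.5%.

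Itgb1 led the beta chains in both libraries, at 197 CPM per kilobase in the control library and 155 in the silenced library, ahead of Itgb5 at 78.7 and 77.6. Itgb7 came next, at 17.1 CPM per kilobase in the control library and 6.52 in the silenced library, above Itgb3 at 2.34 and 1.96. Its share of the beta chains was 5.78% in the control library and 2.69% in the silenced library. The beta chains other than Itgb1 and Itgb7 summed to 82.4 CPM per kilobase in the control library and 80.8 in the silenced library. Among the laminins Lamb1, at 65.6 and 59.8 CPM per kilobase in the control and silenced libraries, and Lamc1, at 62.2 and 62.7, were far above Lamb2, at 15.0 in both, Lama4, at 10.8 and 7.89, and Lama5, at 8.39 and 6.26. The laminin alpha chains summed to 19.5 CPM per kilobase in the control library and 14.4 in the silenced library, against 80.6 and 74.8 for the beta chains, so the alpha chains were the scarcer in both libraries. With the length of the longest transcript in place of all exons, 34 of the 38 rows kept their place in the order of their group, and Lama4, Lama5 and Lamb2 were among those that did not. The sums and shares were computed with exonic length only.

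**Figure D3:**
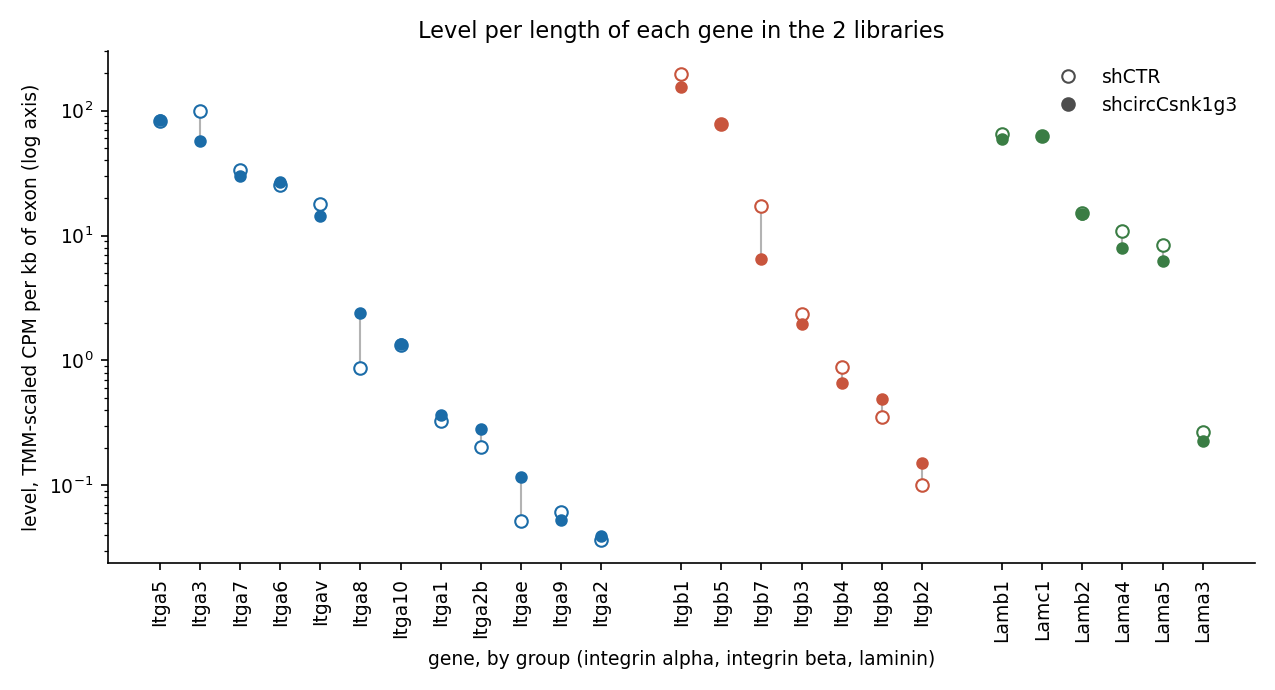
Level of 25 integrin and laminin genes with at least 10 counts, in TMM-scaled CPM per kilobase of exon (log axis), with open points for the control library and filled points for the silenced library. Itgb1 is the highest gene at 197 and 155, Itga3 lies above Itga5 in the control library and below it in the silenced library, and the points of Itgb7 and Itga8 are far apart.

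Integrins work as pairs and laminins as trimers, so the chains were also read together. The pairs and trimers were listed from textbook knowledge after the values of single genes had been seen, and the lowest chain per length was taken as a description of each, not as a measure of protein. Of 24 integrin pairs, 12 had at least 200 summed counts for both chains, and of 14 laminin trimers, 6 had at least that for all 3 chains. All of the 12 pairs held beta1 or alphaV except alpha6beta4. The lowest chain of alpha3beta1 was Itga3 itself, at 100.02 CPM per kilobase in the control library and 57.6 in the silenced library, and the lowest chain of alpha5beta1 was Itga5, at 82.9 and 83.7. For alphaVbeta5 it was Itgav, at 17.9 and 14.3, for alphaVbeta3 it was Itgb3, at 2.34 and 1.96, and for alpha8beta1 it was Itga8, at 0.877 and 2.38. The 12 alpha chains that pair with beta1 summed to 262 CPM per kilobase in the control library and 217 in the silenced library, 1.33 and 1.40 times the level of Itgb1. The lower alpha sum was mostly that of Itga3, since all alpha chains without it came to 162 and 159 CPM per kilobase. These sums and ratios depend on the length used. With the longest transcript, Itga7 was at 66.9 and Itga6 at 53.1 CPM per kilobase in the control library, well above their levels per exonic length.

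None of the pairs of Itgb7 or Itgb2 was complete at 200 summed counts. Among the trimers, the lowest chain of laminin-411 and laminin-421 was Lama4, at 10.8 CPM per kilobase in the control library and 7.89 in the silenced library, and that of laminin-511 and laminin-521 was Lama5, at 8.39 and 6.26. With the length of the longest transcript the lowest chain of laminin-421 was Lamb2 in the control library, at 16.2 CPM per kilobase, and Lama4 in the silenced library, at 15.8, so that the difference for that trimer depends on the length used. The trimers with Lama1 or Lama2 were incomplete through those chains, and those with the gamma3 chain through Lamc3.

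**Figure D4:**
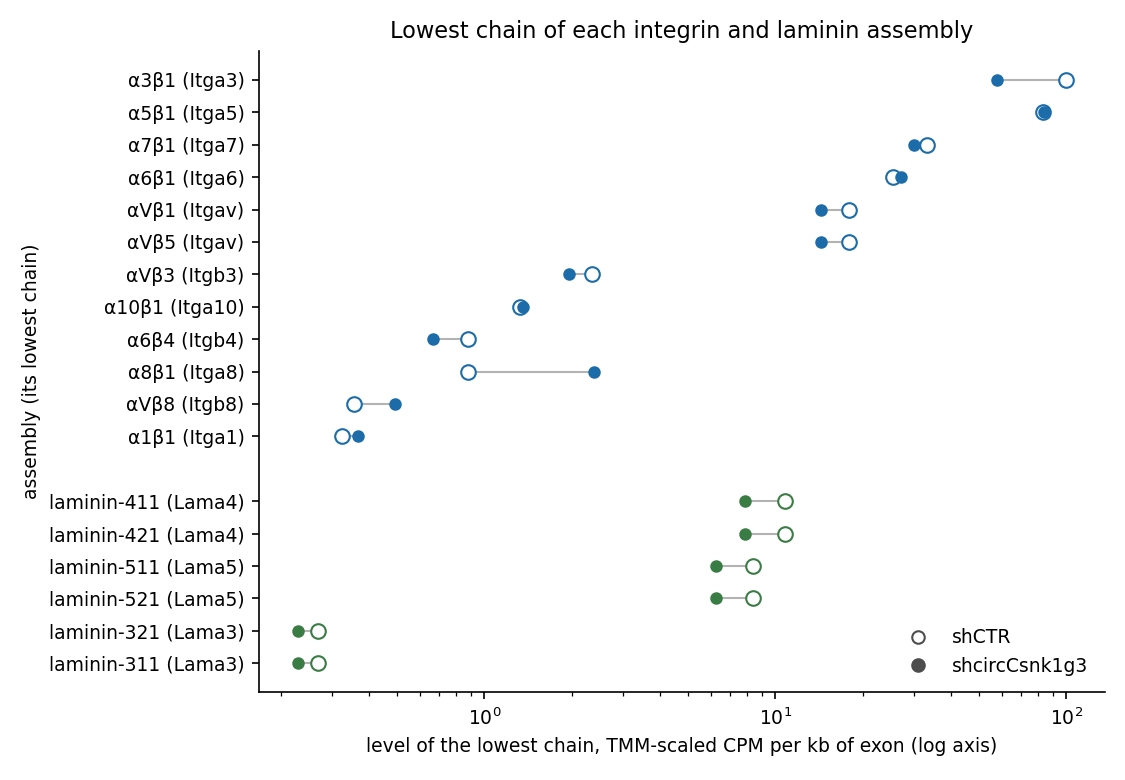
Level of the lowest chain of each of the 12 integrin pairs (blue) and 6 laminin trimers (green) whose chains all had at least 200 summed counts, in TMM-scaled CPM per kilobase of exon on a log axis, with open points for the control and filled points for the silenced library. The lowest chain of alpha3beta1 goes from 100.02 to 57.6 and that of alpha8beta1 from 0.877 to 2.38, while alpha5beta1 stays at 82.9 and 83.7.

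The genes around integrins and laminins were described from 4 lists. The focal adhesion adaptors and kinases, which join integrins to actin and pass on their signals, had 33 rows in the table, of which 29 had at least 10 counts. Their median log2 fold change was -0.01, and 0.01 over the 28 with at least 200 summed counts. Among those 28 the counting interval lay above 0 for 11 and below 0 for 11, where 29.5% and 31% of all genes at that depth did so. Apbb1ip, which encodes RIAM, the Rap1 effector that brings talin to integrins and is known above all from blood cells, had 761 counts in the silenced library and 2040 in the control library. At -1.31 (-1.44 to -1.19) it was the only gene of the list past 2-fold, 1 of 29 beside 2.55% lower and 2.13% higher of all genes tested. Nedd9, a scaffold of focal adhesion signalling, had 1151 and 2171 counts (-0.81, -0.91 to -0.70). The highest were Parvb, a partner of the integrin-linked kinase, with 9186 and 7302 counts (0.44, 0.39 to 0.48), and Kank1, a talin-binding protein of the adhesion rim, with 1219 and 1093 (0.26, 0.15 to 0.38). Genes of proteins that act at the beta tail differed among themselves. Ilk, the integrin-linked kinase, had 6087 and 9456 counts (-0.53, -0.57 to -0.48), the talin gene Tln1 had 24015 and 28314 counts (-0.13, -0.15 to -0.11), and the kindlin gene Fermt2 had 6343 and 6357 (0.10, 0.05 to 0.15).

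Of 21 genes for integrin ligands other than laminins and collagens, 18 had at least 10 counts, with a median log2 fold change of -0.14. Of the 16 with at least 200 summed counts, the interval was above 0 for 4 and below 0 for 11, beside 29.5% and 31% of all genes at that depth. The interval narrows as counts rise, and the part of depth in these shares was not tested. Thbs1, which encodes thrombospondin 1, had 42428 counts in the silenced library and 76914 in the control library (-0.75, -0.77 to -0.73), and Cyr61, a matricellular protein bound by alphaV integrins, had 8689 and 14255 (-0.61, -0.65 to -0.57). In the other direction, Tnc, which encodes tenascin C, had 5092 and 4053 counts (0.44, 0.38 to 0.50), and Thbs2 had 51495 and 42799 (0.37, 0.36 to 0.39). Postn, which encodes periostin, was the only ligand past 2-fold, 1 of 18 beside 2.13%, with 59 and 21 counts (1.51, 0.86 to 2.39), and is named because of its value. Among ligands of single integrins described above, Fn1, the fibronectin bound by alpha5beta1, had 31385 and 41577 counts (-0.30, -0.32 to -0.28), and Npnt, the nephronectin bound by alpha8beta1, had 1157 and 1228 (0.02, -0.10 to 0.14).

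Among 12 laminin partners and laminin receptors other than integrins, 11 had at least 10 counts, with a median log2 fold change of -0.02. All 11 had at least 200 summed counts. The interval was above 0 for 2 and below 0 for 5 of them, beside 29.5% and 31% of all genes at that depth. Nid2, a nidogen that links laminin to collagen IV, had 83 counts in the silenced library and 172 in the control library (-0.93, -1.34 to -0.56), and Sdc1, which encodes syndecan 1, had 3134 and 4869 (-0.53, -0.59 to -0.46). Agrn, which encodes agrin, had 2730 and 2276 counts (0.37, 0.29 to 0.45), and Ntn4, a netrin that binds laminin, had 226 and 214 (0.18, -0.09 to 0.46). Nid1, the more abundant nidogen, had 6281 and 7620 counts (-0.17, -0.22 to -0.12), and Dag1, the dystroglycan that binds laminin, had 10943 and 11541 (0.03, -0.01 to 0.07).

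All 9 genes of membrane proteins that associate with integrins had at least 200 summed counts, with a median log2 fold change of -0.05. The interval was above 0 for 2 of them and below 0 for 5, beside 29.5% and 31% of all genes at that depth. Plaur, the urokinase receptor, had 3710 counts in the silenced library and 5052 in the control library (-0.34, -0.40 to -0.28), and Bsg, which encodes basigin, had 16796 and 21129 (-0.22, -0.25 to -0.19). Slc3a2, the CD98 heavy chain that binds beta1 tails, had 13114 and 10814 counts (0.39, 0.35 to 0.42), and Cd47, a partner of alphaVbeta3 that binds thrombospondin, had 6708 and 6573 (0.14, 0.09 to 0.19). Cd151, the tetraspanin that binds alpha3beta1 and alpha6beta1, had 5102 and 5406 counts and a log2 fold change of 0.02 (-0.03 to 0.08), while that of Itga3 was -0.80.

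**Figure D5:**
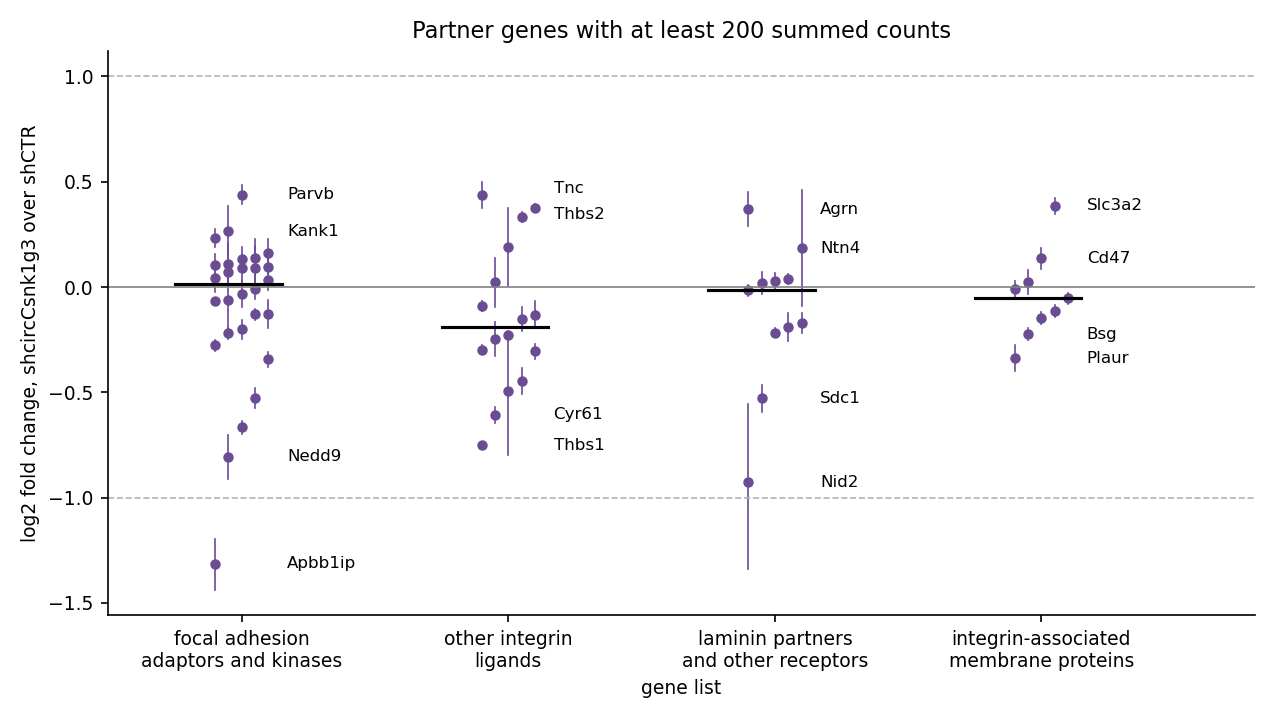
Log2 fold change of the silenced over the control library for the genes of the 4 lists with at least 200 summed counts, with 95% counting intervals as vertical bars, a black line at the median of the points shown and dashed lines at 2-fold. Apbb1ip at -1.31 is the only point beyond a dashed line.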

How the data were processed

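Polyadenylated RNA of both cell populations was sequenced after preparation with a stranded kit. According to the article and the labels, the authors aligned reads to GRCm38 with STAR and a GENCODE annotation, whose release is not given in the sources used here, estimated counts per gene with RSEM and normalized them with edgeR. The table of estimated counts that the authors deposited holds whole numbers for 25509 genes and 92 spike-in rows, which were 0 in both libraries and left out. A second deposited table holds TMM-scaled CPM for 11624 genes, 24 of them integrin or laminin rows, and was used only as an alternative. RSEM divides reads shared by similar genes between them, which can move counts between paralogs.

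Genes that reached 10 counts in either library were kept, TMM factors were computed on them with edgeR 4.0.16 under R 4.3.3, and log2 fold changes had a prior count of 2. Python 3.11.15 served for all else (scipy 1.17.1, pandas 2.3.3, numpy 2.4.6, matplotlib 3.10.9). With 1 library per group no test was made. A gene was called at 2-fold. A count of 3 was taken as the floor. Levels are TMM-scaled CPM per kilobase of the union of exons in GENCODE M21, in which 25251 of the 25509 identifiers and all 38 members were found. Members are named with their counts, and a result for 1 of them is not reported here, although the counts and medians of its group include it. From each partner list the 2 highest and 2 lowest genes with at least 200 summed counts were named, with any past 2-fold at that depth, and other list genes were added for their known relation to a member. Although the rule for members uses symbols only, this family and the lists were chosen with earlier results of these data known. Alternatives were DESeq2 1.42.0 size factors, total counts, prior counts of 0.5 and 10, a minimum of 50 or of 200 summed counts or none, the deposited CPM table, a correction by exonic length decile, other thresholds (1.5-fold, 4-fold and 99% intervals) and transcript length. The steps were tested on simulated counts.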

Additional observations from a re-analysis of the deposited data

How the results depend on the processing

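The median log2 fold change of the laminins went from -0.13 to -0.30 without a count filter (10 genes) and to -0.16 with the length correction. That of the laminin partners went from -0.015 to 0.016 with total counts and to -0.092 without a filter, and that of the integrin-associated membrane proteins from -0.054 to -0.023 with total counts. The focal adhesion median went from -0.0085 to 0.023 with total counts and 0.014 in the deposited CPM table. It was 0.012 and 0.013 with at least 50 and 200 summed counts, and below 0 with the other alternatives. The number of members at least 2-fold higher went from 2 to 1 with a prior count of 10, with at least 50 or 200 summed counts and in the deposited CPM table, where 1.16%, 1.11%, 0.563% and 0.921% of all genes were so, and to 0 at 4-fold, beside 0.379%. The number at least 2-fold lower went from 1 to 4 of 33 without a filter, beside 3.87% of all genes, to 2 of 26 at 1.5-fold, beside 6.31%, and to 0 at 4-fold, beside 0.402%. The alpha chain median went from 0.060 to 0.013 without a filter, 0.022 with at least 200 summed counts and 0.024 in the deposited CPM table, and lay between 0.013 and 0.090 over its alternatives. Where 1 higher call was lost it was that of Itgae, with 21 and 10 counts, and the cause of the other changes was not tested, apart from the added low-count genes and the moved thresholds themselves. Of 223 alternative values of single members 217 stayed within their counting interval and 6 did not, of which 5 were with total counts, a scaling that moved the median of all genes to 0.03. The sign changed in 3 of the values, each of a member whose counting interval spanned 0, namely Itgb5 (0.011) and Lamb2 (0.027) with total counts and Lamc1 (-0.0055) with the length correction. Of 63 alternative list medians 58 stayed within the median bounds of their genes' counting intervals. No paired analysis was possible because each condition had 1 library, and for the same reason no library could be left out. An effect of silencing and a difference between the 2 cultures cannot be told apart. A member with 10 counts in each library would need a log2 difference beyond 1.42 to stand clear of counting error.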

Other observations

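Several members are neighbors in the GENCODE M21 annotation of GRCm38. Itga2 (minus strand of chromosome 13, 114833081 to 114932100) lies beside Itga1 (minus strand, 114953096 to 115101964), and they had 11 and 267 counts in the silenced library and 11 and 255 in the control library. Itgam, Itgax and Itgad follow each other on the plus strand of chromosome 7 between 128062640 and 128223816, and all of their rows were at 0 in both libraries.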
